A study of Mus musculus with 6 samples.

Results

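Kinesins are the motor proteins that walk along microtubules, and their genes were followed here in RNA bound to the ribosomes of parvalbumin neurons with and without Fxr1. The members were chosen by gene symbol alone: the Kif genes, including the Kifc genes whose motor domain lies at the C-terminal end, and the light chain genes Klc1 to Klc4. This gave 46 of the 23306 genes in the deposited count table. A kinesin with another symbol, such as the mitotic Cenpe, was therefore no member. They were sorted by the known role of their proteins into 21 transport genes, 14 mitotic genes, 7 ciliary genes and 3 genes for microtubule depolymerases or non-motile family members. The remaining member, the Kif4 pseudogene Kif4-ps, was given no role.

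RNA was purified from frontal cortex of male C57BL6 mice by the RiboTag method, in which cells that express Cre recombinase carry a haemagglutinin-tagged ribosomal protein, Rpl22, and an antibody against the tag pulls down ribosomes with the transcripts on them. Both genotypes carried the tag (RPL22HA/WT) and Cre driven by the parvalbumin promoter (PV-Cre). The groups differed in Fxr1: wild type mice, and conditional knockout mice in which PV-Cre also removed Fxr1, which encodes a fragile X family protein that binds RNA. Of the 6 samples in the series, 3 per genotype, the analysis used replicates 2 and 3 of the wild type and replicates 1 and 3 of the knockout. The labels give no age, and do not say whether the libraries stem from different animals. The p-values therefore measure only the spread among these 4 libraries, which may be technical.

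In a neuron, transport kinesins carry vesicles, mitochondria, receptors and RNA granules from the cell body into axon and dendrites, and the fragile X proteins are known as passengers of such granules. Mitotic kinesins build and pull the spindle, carry chromosomes and complete cell division, and their genes are switched on in cycling cells and shut off in cells that have left the cell cycle. Ciliary kinesins serve the cilium and hedgehog signalling, and depolymerases such as Kif2a take tubulin off microtubule ends.

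The 4 libraries held between 9696126 and 10301280 counts. Fxr1 gave 954 and 1036 counts in the wild type libraries and 181 and 192 in the knockout libraries, a log2 fold change of -2.45 (SE 0.10, edgeR adjusted p = 1.83e-15), in the direction of the labels. Pvalb averaged 254 ± 10.9 CPM (SD, n = 4), where CPM divides a gene's counts by the library's total and brings all libraries to the same depth, and the GABA synthesis gene Gad1 4235 ± 133, while Camk2a of excitatory neurons, at 698 ± 28.3, and Slc1a2 of astrocytes, at 472 ± 35.2, were present as well. How far the pull-down enriched any transcript could not be measured without an input fraction, and in such bulk samples fewer cells of a type and less RNA per cell cannot be told apart.

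Among the genes whose start regions were given, mitotic and transport kinesin genes also differ in the DNA around their transcription starts. In promoters of late cell cycle genes, a short element known as the cell cycle gene homology region is bound by a complex that represses these genes in resting cells. Its core, TTTGAA, was searched on both strands in RefSeq windows of 300 bases (250 before the start and 50 after it, GRCm38.p6). Windows were given for 36 of the 46 members. The transport genes without one were Kif5a, the most abundant member, and Kif5b, Klc2, Kifc2, Kifc3, Kif13b and Kif21b. It was found in 11 of 13 mitotic genes (84.6%) and in 1 of 14 transport genes (7.14%; Kif1a, in 1 of its 2 windows), against 20.2% of the 27025 genes with a window and 17.9% of all 32851 windows. Among the other members it was found in Kif27, 1 of 6 ciliary genes, and in Kif26b, 1 of 3 depolymerase or non-motile genes. The CCAAT box, which often stands beside that element in cell cycle promoters and was also searched on both strands, was found in 9 of 13 mitotic genes and 5 of 14 transport genes, against 41.1% of all genes with a window. These matches are descriptions of letters, not measured binding.

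The 100 bases before the start are shown for 3 mitotic genes, chosen because their element lies closest before the start, and for 3 abundant transport genes picked from those without one. Each is written 5′ to 3′ on the strand of its gene, and capitals mark TTCAAA, which is the element read from the opposite strand. The windows are chr19:37376282-37376381 (plus strand) for Kif11, chr9:122950981-122951080 (plus) for Kif15, chr7:127042421-127042520 (minus) for Kif22, chr2:49619186-49619285 (plus) for Kif5c, chr12:3365032-3365131 (plus) for Kif3c and chr12:111758768-111758867 (plus) for Klc1, all from RefSeq on GRCm38.p6.
Kif11: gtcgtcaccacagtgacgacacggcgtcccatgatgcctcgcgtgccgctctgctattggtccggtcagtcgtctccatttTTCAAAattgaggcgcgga
Kif15: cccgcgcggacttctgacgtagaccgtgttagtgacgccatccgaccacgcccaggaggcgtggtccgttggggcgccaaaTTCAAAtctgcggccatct
Kif22: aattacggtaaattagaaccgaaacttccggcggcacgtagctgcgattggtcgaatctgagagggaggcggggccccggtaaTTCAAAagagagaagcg
Kif5c: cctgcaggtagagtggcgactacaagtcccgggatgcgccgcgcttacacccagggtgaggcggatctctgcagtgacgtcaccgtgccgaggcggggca
Kif3c: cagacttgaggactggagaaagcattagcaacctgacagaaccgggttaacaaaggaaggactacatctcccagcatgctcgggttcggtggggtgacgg
Klc1: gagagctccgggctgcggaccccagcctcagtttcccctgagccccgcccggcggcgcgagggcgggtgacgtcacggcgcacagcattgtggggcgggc
The element began 19 bases before the start in Kif11 and in Kif15 and 17 bases before it in Kif22. In 6 other mitotic genes (Kif18b, Kif20b, Kif23, Kifc1, Kif4 and Kifc5b) it began 1 to 29 bases after the start. It lay farther upstream in Kif2c and Kif14, and the windows of Kif18a and Kif2b held none.

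**Figure D1:**
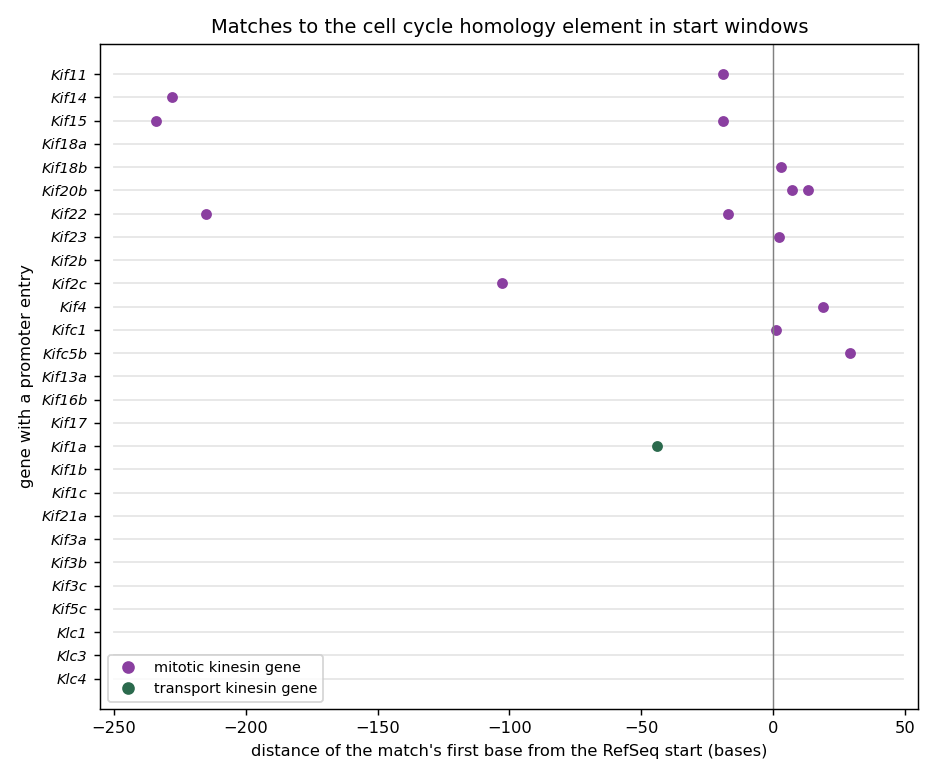
Position of each match to the cell cycle homology element (points, by the first base of the match) in the RefSeq windows of mitotic and transport kinesin genes, with the distance from the transcription start in bases on the x axis and 1 gene per line. Matches stand in 11 of 13 mitotic genes, most of them close to the start, and in 1 of 14 transport genes, Kif1a.

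In ribosome-bound RNA, transport kinesin genes made up nearly the whole kinesin level, and mitotic ones stood at a trace. Levels of different genes are given as CPM per kilobase of merged exon (CPM per kb), so that long transcripts do not count more. Transport genes took 98.4 ± 0.131% (SD, n = 4) of the summed level per kb of all members, a sum that leaves out Cenpe. The depolymerase or non-motile genes took 1.43 ± 0.118%, the ciliary genes 0.0866 ± 0.00973% and the mitotic genes 0.0733 ± 0.0105%. The summed transport level was 1531 and 1466 times the summed mitotic level in the wild type libraries and 1331 and 1120 times it in the knockout libraries. In raw counts, the transport genes summed to between 147610 and 159834 per library and the mitotic genes to 83, 97, 99 and 109, the first pair being wild type and the second knockout libraries. The share of mitotic genes was thus higher in both knockout libraries, 0.0741% and 0.0877% against 0.0643% and 0.0671%. Kif20b and Kif22 carried this: without them, a choice made after seeing the data, the mitotic genes gave 81 and 93 wild type counts against 82 and 90 knockout counts. Their shares then overlapped, at 0.0630% and 0.0639% against 0.0617% and 0.0727%. The shares were given no test. With 2 libraries against 2, the lowest two-sided p an exact permutation test allows is 0.333.

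**Figure D2:**
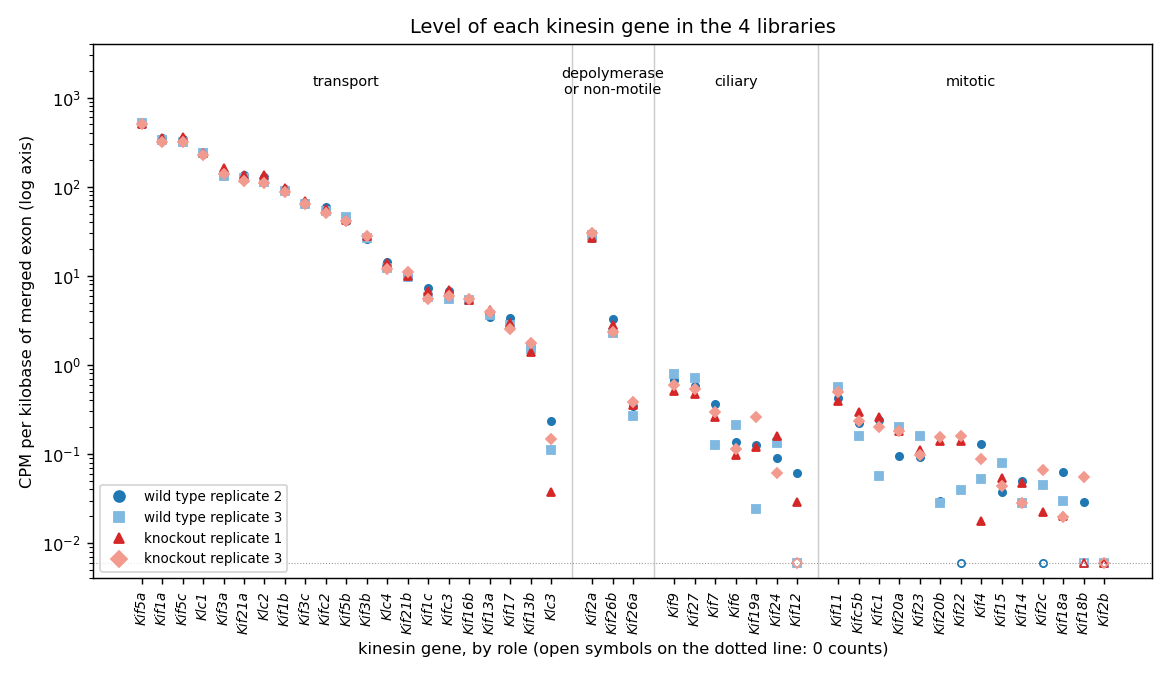
Level of each kinesin gene in each of the 4 libraries, in CPM per kilobase of merged exon on a log axis, grouped by role and ordered by mean level (Kif4-ps, with 0 counts everywhere, is not drawn). Blue symbols are wild type and red symbols knockout libraries, and open symbols on the dotted line mark 0 counts. The transport genes run from 507 down to 0.132 CPM per kb on average, while no mitotic member averages above 0.470.

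Kinesin-1, the main motor of fast axonal transport, was the most abundant kinesin. It is a complex of heavy chains, which hold the motor, and light chains, which bind cargo. The neuronal heavy chain gene Kif5a (mm10 chromosome 10, 127225696 to 127263348) stood at 3492 and 3651 CPM in the wild type and 3542 and 3491 CPM in the knockout libraries. That is 507 ± 10.8 CPM per kb, above every other kinesin gene in every library. Kif5c (chromosome 2, 49619298 to 49774778), the other heavy chain gene that is mainly neuronal, stood at 2481 and 2271 CPM in the wild type libraries, against 2611 and 2262 CPM in those of the knockout. Its wild type and knockout libraries overlapped, with knockout replicate 1 highest and knockout replicate 3 lowest. Kif5b, the heavy chain gene used by most cell types, was lower, at 327 and 361 CPM in the wild type libraries, against 336 and 326 CPM in those of the knockout. Per kb, Kif5a made up 57.2 ± 1.67%, Kif5c 38.0 ± 1.88% and Kif5b 4.77 ± 0.233% of the 3 heavy chain genes together.

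Of the light chain genes, Klc1 (chromosome 12, 111758849 to 111807844) led with 943 and 979 CPM in the wild type libraries, against 971 and 924 CPM in those of the knockout, or 234 ± 6.22 CPM per kb. Klc2 followed at 122 ± 12.1 CPM per kb and Klc4 at 13.1 ± 1.14. Klc3, known mainly from sperm tails, was the transport gene too low to be tested, with 6, 3, 1 and 4 counts. The heavy chain genes together stood 2.40 ± 0.0449 times above the light chain genes per kb, and the ratio lay between 2.36 and 2.45 in all 4 libraries. The heavy chain sum itself ran from 857 to 914 CPM per kb and the light chain sum from 349 to 388, with knockout replicate 3 lowest and knockout replicate 1 highest in both.

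Kinesin-2 moves as a heterotrimer of Kif3a with Kif3b or Kif3c and an adaptor protein, Kifap3. Kif3a (chromosome 11, 53567379 to 53601967) stood at 517 and 468 CPM in the wild type libraries, against 577 and 493 CPM in those of the knockout, or 143 ± 13.0 CPM per kb. The adaptor gene Kifap3, which is no member, had almost the same level, with 138 to 150 CPM per kb. The partners of Kif3a were both lower, and the neuronal partner Kif3c, at 65.3 ± 2.24 CPM per kb, stood 2.43 ± 0.0871 times above Kif3b, at 26.9 ± 1.03. The ratio of Kif3a to Kif3b was 5.32 ± 0.435. Kif17, a homodimeric kinesin-2 known for carrying NMDA receptor vesicles into dendrites, was among the lowest transport genes, at 2.91 ± 0.347 CPM per kb.

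Kinesin-3 genes spanned a wide range. Kif1a (chromosome 1, 93015464 to 93101951), the motor of synaptic vesicle precursors and dense core vesicles, stood at 3266 and 3082 CPM in the wild type libraries, against 3321 and 2927 CPM in those of the knockout. At 338 ± 19.2 CPM per kb it could not be told apart from Kif5c, at 337 ± 23.8, since the libraries of these neighbours in the order overlapped. Kif1b, which carries mitochondria or synaptic vesicle precursors depending on its isoform, reached 91.8 ± 4.09 CPM per kb. Kif1a exceeded Kif1b 3.68 ± 0.0490 times. The endosomal and membrane cargo motors were far lower: Kif1c stood at 6.32 ± 0.807 CPM per kb, Kif16b at 5.35 ± 0.0584, Kif13a at 3.77 ± 0.320 and Kif13b at 1.56 ± 0.153.

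Among the remaining transport genes, Kif21a, a kinesin-4 that restrains microtubule growth, stood at 128 ± 8.73 CPM per kb and overlapped with its neighbours Kif3a and Klc2. The transport share of 98.4% depends on such choices of role, since it includes Kif21a. Its paralogue Kif21b was at 10.1 ± 0.608, and the ratio of Kif21a to Kif21b was 13.1 to 13.8 in 3 libraries and 10.7 in knockout replicate 3. Kifc2 and Kifc3 belong to kinesin-14, whose members walk to the minus end of the microtubule. The neuronal Kifc2 reached 55.3 ± 3.75 CPM per kb and Kifc3 6.26 ± 0.690. Altogether the 4 leading genes, Kif5a, Kif1a, Kif5c and Klc1, made up 65.1 ± 0.626% of the summed kinesin level per kb. In the order of levels from the top down to Kif5b, some genes were separated from the gene below them in all 4 libraries. These were Kif5a, Kif5c, Klc1, Klc2, Kif1b, Kif3c, Kifc2 and Kif5b.

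The depolymerase Kif2a, known for pruning axon branches, was the most abundant member outside the transport genes, with 171 and 182 CPM in the wild type libraries, against 170 and 193 CPM in those of the knockout (28.0 ± 1.69 CPM per kb). It overlapped with Kif3b in the order of levels. Kif26b and Kif26a, whose motor domains do not walk, were lower, at 2.67 ± 0.475 and 0.336 ± 0.0487 CPM per kb.

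The ciliary genes lay at or below 0.638 CPM per kb. Kif9, a motor of the central apparatus of motile cilia, gave 28 and 35 wild type counts against 22 and 26 knockout counts. Kif27, a relative of the hedgehog regulator Kif7, gave 29 and 38 counts against 25 and 29. Both were lower in the knockout libraries without overlap (for Kif27 the wild type value of 2.99 CPM stood next to the knockout value of 2.82), on no more than 38 counts per library. Kif7 itself gave 16 and 6 counts against 12 and 14, and Kif24, a depolymerase of the cilium base, 7 and 11 against 13 and 5. Of the markers of ependymal cells, the ciliated lining of the ventricles, Foxj1 stood at 9.03 ± 1.19 CPM, but Ccdc153 and Tmem212 had no count in 3 of the 4 libraries.

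Among the mitotic genes, 10 of 14 had fewer than 10 counts in every library. Kif11 (chromosome 19, 37376403 to 37421859), the motor that pushes spindle poles apart, led these 14. It gave 31 and 43 wild type counts against 30 and 38 knockout counts, or 0.470 ± 0.0728 CPM per kb. The mitotic kinesin Cenpe, no member by its symbol, stood higher on average, at 0.555 ± 0.172 CPM per kb. Cenpe gave 49 and 33 wild type counts against 68 and 43 knockout counts. Kif23, a motor of cytokinesis, gave 7 and 13 counts against 9 and 8. Kif20a, another cytokinesis motor, gave 4 and 9 against 8 and 8. Kifc5b gave 8 and 6 counts against 11 and 9, but 42.1% of its 50-base stretches also occur in Kifc1, a spindle motor of the same kinesin-14 class, so that the counts of this pair may not be separable. Kif2b, like the pseudogene Kif4-ps, had no count in any library, which allows up to 3 counts, or 0.291 to 0.309 CPM per library, from counting error alone. Other genes of cell division were scarce as well. Of 16 listed, Cenpe included, 6 could be tested. All 16 together gave 232 and 205 wild type counts against 235 and 206 knockout counts. They were led by the spindle assembly factor Tpx2 at 5.85 ± 0.935 CPM.

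Whether loss of Fxr1 changed the kinesin transcripts on ribosomes was asked with edgeR's quasi-likelihood test over all genes, adjusted by the Benjamini-Hochberg method at a threshold of 0.05. Of the 46 members 29 had enough reads: 20 of 21 transport genes, the 3 depolymerase or non-motile genes, 4 ciliary genes (Kif9, Kif27, Kif7 and Kif24) and 2 mitotic genes (Kif11 and Kif20b). None of the 29 passed, against 4 of 12449 genes tested (0.0321%), and every adjusted p of a member was 0.998. DESeq2's Wald test called no kinesin gene either. At an unadjusted p under 0.05 there was 1 member, Kif20b, where 402 of all genes tested (3.23%) fell under that value. Single members shifted when a knockout library was left out. Without knockout replicate 1 the log2 fold changes were -0.13 for Kif1a and -0.17 for Kif21a. Without knockout replicate 3 they were 0.24 for Kif3a, 0.15 for Kif5c and 0.18 for Klc2. The wild type and knockout libraries did not overlap in 8 of 29 members (27.6%), 6 higher and 2 lower in knockout, beside 30.2% of all genes tested. With all 4 libraries, each of these shares of kinesin genes is near the background, and none marks the kinesin genes as a group.

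**Figure D3:**
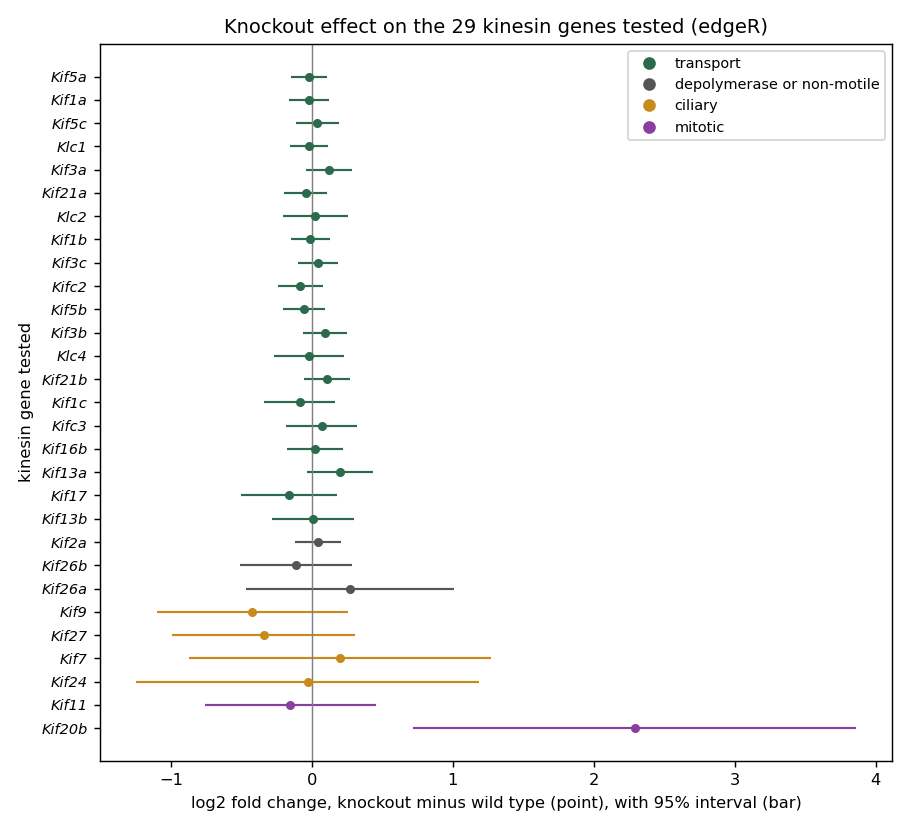
Log2 fold change, knockout minus wild type, of the 29 kinesin genes tested by edgeR (points) with 95% intervals (bars), coloured by role and ordered by level within each role. All 20 transport genes lie between -0.16 and 0.20. Bars are short for the 13 of them at 100 CPM or more, and longer for lower ones such as Kif17 (-0.50 to 0.18). The bars of the low ciliary and mitotic genes are long, and Kif20b stands alone at 2.29.

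Transport genes at 100 CPM or more were measured with narrow intervals around no change. Of 20 tested, 10 were higher and 10 lower in knockout, with a median log2 fold change of -0.00112, beside -0.00145 over all genes tested, and their libraries did not overlap in 4 of 20. The median SE was 0.08 for transport genes and 0.13 over all genes tested. For the 13 transport genes at 100 CPM or more, the log2 fold changes ran from -0.08 to 0.12, and the 95% intervals together reached from a fold of 0.845 to a fold of 1.22. Over all 20 they reached from 0.708 to 1.35. These bounds are the outermost ends of single-gene 95% intervals, which were not adjusted for the number of genes. They are no limit of detection. How small a change could pass the adjusted threshold with 2 libraries per genotype was not tested.

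Within these bounds, log2 fold changes were -0.02 for Kif5a (SE 0.06), -0.02 for Kif1a (SE 0.07), 0.04 for Kif5c (SE 0.07) and -0.02 for Klc1 (SE 0.07). These 4 most abundant kinesin genes overlapped between genotypes. The largest value among the well-expressed transport genes was that of Kif3a, 0.12 (SE 0.08), with knockout replicate 1 above both wild type libraries and knockout replicate 3 between them. Over all transport genes Kif13a, which moves vesicles from the Golgi and endosomes, had the highest value. It stood at 27.7 and 29.03 CPM in the wild type libraries, against 33.4 and 31.8 CPM in those of the knockout, without overlap, and its log2 fold change was 0.20 (SE 0.12, edgeR adjusted p = 0.998). The lowest was Kif17, with 15.4 and 12.8 CPM against 13.6 and 11.6 CPM, which overlapped, and a log2 fold change of -0.16 (SE 0.16).

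The other transport genes whose libraries did not overlap were Kif3b, Kif21b and Kif16b, all higher in knockout. Separation in that direction was found in 1844 of the 12449 genes tested. Kif3b stood at 145 and 148 CPM in the wild type libraries, against 156 and 157 CPM in those of the knockout (log2 fold change 0.09, SE 0.08). Kif21b stood at 119 and 117 CPM against 121 and 133 CPM (0.11, SE 0.08). Kif16b stood at 48.2 and 48.1 CPM against 48.5 and 49.3 CPM (0.02, SE 0.10), so that its groups were separate at a fitted fold of 1.02. Of the depolymerase or non-motile genes, Kif2a had a log2 fold change of 0.04 (SE 0.08), Kif26b of -0.11 (SE 0.17) and Kif26a, whose groups did not overlap, of 0.27 (SE 0.36).

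The low genes allowed only loose bounds. Kif9 had a log2 fold change of -0.42 (95% interval -1.10 to 0.25) and Kif27 of -0.34 (-0.99 to 0.31). For Kif7 and Kif24 the values were 0.20 (-0.87 to 1.27) and -0.03 (-1.24 to 1.19), and for Kif11 -0.15 (-0.76 to 0.46). A 2-fold change in at least 1 direction lay within the intervals of Kif7, Kif9 and Kif24, and also of Kif26a, whose interval ended at 1.01.

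Kif20b (chromosome 19, 34922361 to 34975745), a motor of late cytokinesis that also serves the polarity of young neurons, had the largest difference among the members tested. It gave 2 counts in each wild type library and 10 and 11 counts in the knockout libraries. The groups did not overlap, and the fitted log2 fold change of 2.29 (SE 0.77, 95% interval 0.72 to 3.86) was the highest of all 12449 genes tested. Its unadjusted p of 0.00595 held rank 56 among them, and its adjusted p by edgeR was 0.998. Summed counts of 4 and 21 gave a ratio of 5.13 after scaling to library totals, with a 95% interval of 1.73 to 20.6 that covers counting error only. Kif20b entered the test only through its knockout libraries, since 2 counts lie below the filter, and a gene that enters this way had to differ. None of its 50-base stretches occurred in transcripts of another gene. Kif22, a motor that pushes chromosome arms and named here after its values were seen, had a like pattern with 0 and 2 wild type counts against 7 and 8 knockout counts, and was not tested. Its summed counts of 2 and 15 gave a larger ratio, 7.33, with a wider 95% counting interval of 1.71 to 66.1. Other mitotic genes too low to be tested went either way. Kifc5b was higher in knockout without overlap, with 8 and 6 wild type counts against 11 and 9. Kif18a was lower without overlap, with 6 and 3 wild type counts against 2 and 2. Kif11, the mitotic member with the most reads, gave 74 summed counts in wild type and 68 in knockout.

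The transport genes also differed between libraries of 1 genotype. Knockout replicate 1 was the highest library in 9 of the 20 transport genes tested and knockout replicate 3 the lowest in 13, whereas over all genes tested knockout replicate 1 was highest in 22.6% and knockout replicate 3 lowest in 21.6%. The transport genes summed to 15303 and 14842 CPM in wild type replicates 2 and 3, to 15720 CPM in knockout replicate 1 and to 14347 CPM in knockout replicate 3, so that the knockout libraries enclosed both wild type libraries. Their median log2 fold change was -0.08 without knockout replicate 1 and 0.07 without knockout replicate 3. Markers of oligodendrocytes and their precursors moved with the low library: the 9 markers summed to 312 and 282 CPM in wild type, 287 CPM in knockout replicate 1 and 404 CPM in knockout replicate 3, and 8 of 9 were highest there. The 6 astrocyte markers followed, with 540 and 503 CPM in wild type, 514 CPM in knockout replicate 1 and 596 CPM in knockout replicate 3, where 4 of 6 were highest. Of all genes tested, 28.3% were highest in knockout replicate 3. The ribosomal RNA precursor Rn45s moved with the high library, at 7110 CPM in knockout replicate 1 against 2827 to 3152 CPM in the others. The 7 parvalbumin neuron markers summed to 10531 and 10699 CPM in wild type and to 10237 and 10229 CPM in knockout. Of 7 markers of striatal projection neurons, 6 were higher in knockout without overlap, where 30.2% of all genes tested did not overlap in either direction. The remaining 1 was lower, with a log2 fold change of -0.25, and overlapped. By edgeR 4 of the 7 had an unadjusted p under 0.05, beside 3.23% of all genes tested, and none passed the threshold. The 7 summed to 103 and 114 CPM in wild type and to 105 and 119 CPM in knockout, so that the sums overlapped. Drd2 and Adora2a, both at 2.43 CPM or below, were each at a log2 fold change of 0.96. The part of these markers in the kinesin values was not tested.

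**Figure D4:**
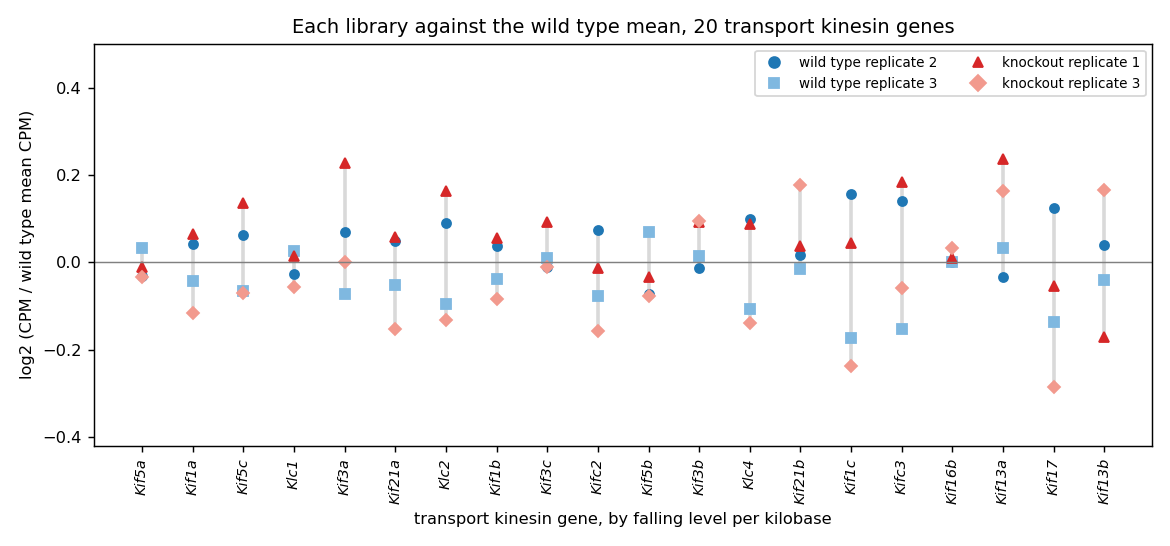
Log2 ratio of each library's CPM to the mean of the wild type libraries, for the 20 transport kinesin genes tested, ordered by falling level per kilobase; vertical bars join the lowest and the highest library. Knockout replicate 1 is the highest library in 9 genes and knockout replicate 3 the lowest in 13.

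The partners of kinesins in transport gave no call either. Of 27 cargo adaptors and regulators of kinesin, all tested, none passed the threshold, 17 were higher and 10 lower in knockout, and the median log2 fold change was 0.03. Trak2, an adaptor that links mitochondria to kinesin-1, stood at 202 and 188 CPM in the wild type libraries, against 207 and 232 CPM in those of the knockout (log2 fold change 0.17, SE 0.08, edgeR adjusted p = 0.998), and was the 1 adaptor gene with an unadjusted p under 0.05. The calsyntenin genes Clstn1, an abundant cargo adaptor of the kinesin light chains at 1711 ± 24.0 CPM, and Clstn3 had values of -0.03 (SE 0.06) and -0.11 (SE 0.06). Grip2, related to the adaptor that steers Kif5 to dendrites, had 0.12 (SE 0.08).

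Of the genes for dynein, the motor that runs against most kinesins toward the cell body, and its activator dynactin, 25 of 26 were tested, none passed, and 16 were higher and 9 lower. Dync1h1, the dynein heavy chain gene, at 2289 ± 95.8 CPM, differed by -0.02 on the log2 scale (SE 0.07), and Dctn1, the largest dynactin subunit, by 0.04 (SE 0.07). The smallest p values belonged to the adaptor gene Bicd2 (0.15, SE 0.08) and the light chain genes Dynlrb1 (0.18, SE 0.10) and Dynll1 (0.21, SE 0.13). All 3 were without overlap and had an edgeR adjusted p of 0.998. Groups did not overlap in 6 of the 25 (24.0%), beside 30.2% of all genes tested. Of 22 genes for tubulins and microtubule-associated proteins, the track on which kinesins walk, none passed, 8 were higher and 14 lower. Map1b, at 7394 ± 318 CPM, and Map1a, at 6533 ± 448 CPM, had log2 fold changes of -0.08 (SE 0.06) and -0.11 (SE 0.07), and Tuba4a and Tubb3 had -0.12 (SE 0.07) and -0.11 (SE 0.07). Of the cell division genes that could be tested, Cenpe (0.40, SE 0.29), Cenpf (0.34, SE 0.38) and Aurka (-0.30, SE 0.38) had the smallest p values, with groups that overlapped.

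Several kinesin genes share exon sequence with a gene on the opposite strand in the GENCODE M21 annotation of mm10, among them Klc1 with Xrcc3 and Kif2a with Dimt1, and Kif17 shares it with Sh2d5 on the same strand. How the deposited counts treated such reads was not stated in the labels or the table, and the levels of these genes are less certain than those of Kif5a, Kif1a, Kif3a and Kif20b, which have no such neighbour.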

How the data were processed

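The table the authors deposited holds unnormalized read counts, as whole numbers, for 23306 gene symbols. Of its rows, 27 symbols had been turned into dates and 4 rows shared a repeated symbol; none was a kinesin gene. Per the labels' protocols, a SMARTer stranded kit for total RNA (Takara) was used. Per the submitters' processing notes, the aligner was STAR and the build mm10. Not given in the sources used here are the version of STAR, the counting tool, its annotation and its strand setting.

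Genotypes came from the labels, and replicates were numbered by accession, with no pairing. Of the 6 columns, 4 could be matched to a single sample by its title. The other 2 share 1 title, that of wild type replicate 1, and were left out.

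Counts entered edgeR 4.0.16 in R 4.3.3 (TMM normalization, filterByExpr, robust quasi-likelihood fits, Benjamini-Hochberg adjustment over 12449 genes), and intervals come from the same fit. CPM uses library totals. Merged exon lengths, coordinates and exon overlaps are from GENCODE M21 (mm10), which placed all 46 members. Promoter windows are from RefSeq (GRCm38.p6). Alternatives were scaling by library totals or by DESeq2 size factors, the DESeq2 1.42.0 Wald test, no filter on low counts, a threshold of 0.1, other lengths, and leaving out each library. Leaving out Kif20b and Kif22 from the mitotic share was added after seeing the data.

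The kinesin genes, their roles and the other lists were chosen with earlier results of these data known. The rule for named genes took every tested transport, depolymerase or non-motile member and any member past the threshold. Of the other roles it took the 4 members with the highest mean CPM and any with an unadjusted p under 0.05. Of each other list it took members past the threshold, the 3 with the smallest p and the 2 with the highest mean CPM. Klc3, Kif22, Kif18a, Kifc1, Kif2b, Kifap3 and the genes of the promoter windows outside that rule were named after their values were seen.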

Additional observations from a re-analysis of the deposited data

How the results depend on the processing

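No kinesin gene passed the threshold in any alternative run (0 in each), and the lowest adjusted p of a named member in any of them was 0.377. At an unadjusted p under 0.05 there was 1 kinesin gene by edgeR, 0 of 44 by the DESeq2 Wald test and 2 of 44 with no filter on low counts. Leaving out a wild type library gave 1 (Kif20b without replicate 2, Kif26b without replicate 3), and leaving out a knockout library gave 3: without knockout replicate 1 Kif1a and Kif21a (both lower) and Kif20b, without knockout replicate 3 Kif3a, Kif5c and Klc2 (all higher). Over all genes the count of 4 became 1 with library totals, 2 with the DESeq2 Wald test and 13 with no filter, and 9 to 48 when each library was left out in turn; the cause was not tested. With 1 library left out, the lone library of its genotype is assumed to vary like the other genotype. The median log2 fold change of the transport genes ran from -0.0762 to 0.0712 over these fits. The median of the 2 mitotic genes tested, 1.07, rests on Kif20b: it was 0.28 with DESeq2 and 0.27 with no filter, both over 13 genes, and -0.16 to 0.25 with a library left out. The mitotic share of the kinesin level, 0.0733%, was 0.0913% by longest transcript, 0.0628% with no length correction and 0.0653% with Kif20b and Kif22 left out, while the transport share stayed between 98.4% and 98.5%. Of 231 values of single members under the alternatives, 197 kept their direction. The 34 that turned, over 20 members, all came from leaving out a library, and none of these members lay farther than 0.20 from 0 in the fit of 4 libraries. Their ranges without 1 library were -0.333 to 0.0656 for Kif11, -0.16 to 0.15 for Kif13b, -0.129 to 0.0797 for Kif1a, -0.0953 to 0.0697 for Kif1b, -0.247 to 0.0797 for Kif1c, -0.165 to 0.0726 for Kif21a, -0.88 to 0.52 for Kif24 and -0.35 to 0.17 for Kif26b. For Kif2a they were -0.0375 to 0.120, for Kif3a -0.0113 to 0.243, for Kif3c -0.0228 to 0.106, for Kif5a -0.0589 to 0.0209, for Kif5b -0.129 to 0.0272 and for Kif5c -0.0827 to 0.151. For Kif7 they were -0.36 to 1.10, for Kifc2 -0.17 to 0.00142, for Kifc3 -0.0689 to 0.216, for Klc1 -0.0696 to 0.0285, for Klc2 -0.14 to 0.18 and for Klc4 -0.15 to 0.10. Kif20b lay between 2.26 and 2.34 where it could be tested with a library left out, and was not tested without knockout replicate 3. No paired analysis was possible because samples were numbered by accession and no label pairs them.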
